A study of Arabidopsis thaliana with 8 samples.

Results

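The chloroplast NADH dehydrogenase-like (NDH) complex and the light-harvesting protein gene LHCB4.2 were followed here across 4 genotypes of Arabidopsis thaliana seedlings. The genes chosen were 4 nuclear genes for NDH subunits, NdhN (AT5G58260), NdhM (AT4G37925), NdhO (AT1G74880) and NdhL (AT1G70760), together with LHCB4.2 (AT3G08940). Of these 5 genes, 3 had a probe set that names that gene alone among the 22746 probe sets tested, namely NdhN, NdhL and LHCB4.2. NdhM and NdhO were not matched to a named probe set and were not analysed here. NdhN and LHCB4.2 were chosen by their measured difference between the IBM1 knockout and wild type (WT), so for that comparison their values are a description and carry no test. The other subunits were added because they belong to the same complex.

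The NDH complex sits in the thylakoid membrane, takes electrons from ferredoxin and passes them to plastoquinone, which feeds cyclic electron flow around photosystem I. Some of its subunits are encoded by the chloroplast genome and the others, NdhL to NdhO and NdhS among them, by the nucleus, so that building it needs both. LHCB4.2 is 1 of 3 Arabidopsis genes for CP29, a chlorophyll-binding antenna protein that links photosystem II cores to their outer antenna.

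The samples were aerial parts of seedlings of the accession Col-0, aged 12 days, untreated, grown at 20 °C for 16 h of light and 18 °C for 8 h of dark. The 4 genotypes were an IBM1 knockout, a JMJ24 knockout, a JMJ24-IBM1 double knockout and WT, with 2 Affymetrix ATH1 arrays each. Both IBM1 and JMJ24 encode proteins of the jumonji family, and IBM1 is known to remove methyl groups from histone H3 lysine 9 within transcribed genes. The labels name no alleles. They also leave unsaid whether both arrays of one genotype stem from separate plantings, so p-values here cover the array-to-array spread alone, and that spread may be technical.

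The values are on a log2 scale, so a difference of -1 means a halved signal. Array lower quartiles lay between 2.49 and 2.53, and all 3 measured members lay far above them on every array. Pairs of arrays correlated across probe sets between 0.975 and 0.994. JMJ24 knockout replicate 1 correlated at 0.994 with double knockout replicate 2, above its 0.992 with JMJ24 knockout replicate 2. The replicates of the double knockout correlated at 0.988, below the 0.993 of double knockout replicate 1 with JMJ24 knockout replicate 2 and its 0.992 with WT replicate 1. With IBM1 knockout replicate 1, double knockout replicate 2 correlated at 0.989 and double knockout replicate 1 at 0.983. JMJ24 knockout replicate 1 correlated with that IBM1 knockout array at 0.989, and JMJ24 knockout replicate 2 at 0.981. The differences of the members and of NdhS that rest on JMJ24 knockout replicate 1 or double knockout replicate 2 are given without both arrays further on. The leaf marker RCA, which encodes Rubisco activase, was the 1 of 5 leaf markers measured and lay between 12.81 and 12.95 on all arrays. Of 7 root markers 2 were measured: EXPA7, a root hair expansin gene, was at or near background at 2.21 to 2.24, while PYK10, a beta-glucosidase gene also active in young seedlings outside the root, lay between 8.65 and 9.63. The knocked-out genes themselves were not analysed here.

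NdhN, a subunit of the arm of the complex that faces the stroma, stood lower in every knockout than in WT. Its log2 level was 7.14 and 7.13 on the IBM1 knockout arrays, 7.51 and 7.42 on those of the JMJ24 knockout, 7.33 and 7.28 on those of the double knockout, and 7.83 and 7.96 on those of WT. All 6 knockout arrays lay below both WT arrays, and no 2 genotypes overlapped. The group means were 7.13 ± 0.00148 for the IBM1 knockout, 7.47 ± 0.0706 for the JMJ24 knockout, 7.30 ± 0.0400 for the double knockout and 7.90 ± 0.0922 for WT (SD, n = 2 each). Over the whole table, 3.49% of probe sets had all 6 knockout arrays below both WT arrays. The order IBM1 knockout, double knockout, JMJ24 knockout and WT from low to high, with no overlap between neighbours, was met by 48 of 22746 probe sets (0.211%). This order is that of NdhN itself. Both shares also include the IBM1 knockout below WT, which chose NdhN, so they do not measure how unusual NdhN is.

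**Figure D1:**
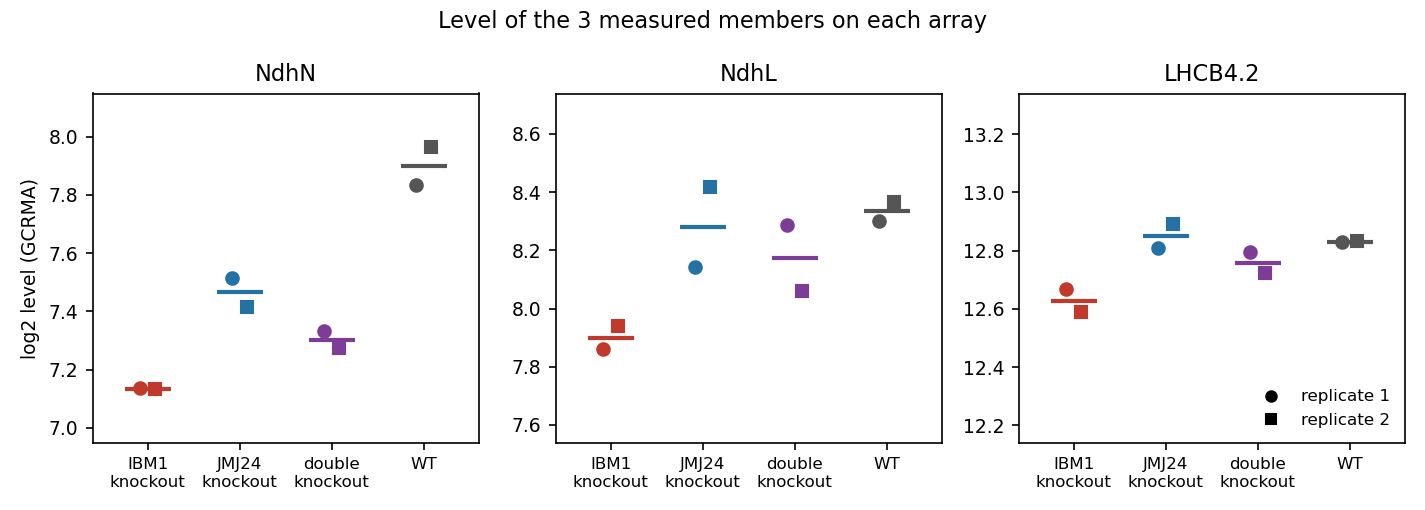
Log2 level of NdhN, NdhL and LHCB4.2 on each of the 8 arrays, by genotype; circles and squares are replicates 1 and 2, horizontal lines are group means, and each panel spans the same log2 range. The IBM1 knockout arrays are the lowest for each gene, at 7.13 to 7.14 for NdhN, as in 7.91% of all probe sets. For NdhN both WT arrays, at 7.83 and 7.96, lie above all others, as in 3.49%. NdhN and LHCB4.2 were chosen by the IBM1 knockout against WT.

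In the IBM1 knockout NdhN differed from WT by -0.76 (SE 0.0618), a signal of 0.589 times that of WT. A probe set was called where its limma p, adjusted by Benjamini-Hochberg over all 22746, was under 0.05. The 16 probe sets called lower, 0.0703% of those tested, include NdhN, which is how it was chosen and is read no further. Their differences ran from -1.10 to -0.38. Without any 1 of the 8 arrays NdhN would not have been called, at differences between -0.83 and -0.70.

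The total RNA yield moved with this comparison: it was 24 and 16.2 µg in the IBM1 knockout, the 2 lowest of the series, and 45.5 and 28.2 µg in WT. PYK10 also stood higher, at 9.26 and 9.63 in the IBM1 knockout and 8.65 and 8.85 in WT. The summed log2 level of the 2 root markers was 11.5 to 11.8 in the IBM1 knockout and 10.9 to 11.1 in WT. EXPA7 was at or near background on all arrays, so that sum moved with PYK10 alone. RCA stood at 12.8 to 12.9 in the IBM1 knockout and 12.9 in WT. The part of RNA yield and of root tissue in these results was not tested. In whole aerial tissue, fewer photosynthetic cells and less RNA per cell cannot be told apart.

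In the JMJ24 knockout NdhN differed from WT by -0.43 (SE 0.0618, limma adjusted p = 0.556), and in the double knockout by -0.59 (SE 0.0618, limma adjusted p = 0.314). Neither difference passed over all probe sets, although in each comparison the arrays did not overlap. Such separation downwards was seen in 12% of probe sets for JMJ24 loss and 11.5% for the double loss. Both comparisons share the WT arrays with the one that brought NdhN into view, so the values stand side by side and are not independent of it.

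Set against the single knockouts, the double knockout was intermediate for NdhN. It stood 0.17 above the IBM1 knockout (SE 0.0618, 95% interval 0.01 to 0.33, limma adjusted p = 0.415) and differed from the JMJ24 knockout by -0.16 (SE 0.0618, 95% interval -0.32 to -0.00462, limma adjusted p = 1). No overlap in these directions occurred in 16.2% and 9.71% of probe sets. The difference from the IBM1 knockout reuses arrays that chose NdhN for its low level there, so it is not independent of that choice. Neither difference passed, so among the 3 knockouts the order of NdhN levels is given by the arrays and was not established by the test.

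NdhL, a small membrane subunit needed for the stromal arm to accumulate, stood lowest in the IBM1 knockout. It measured 7.86 and 7.94 on the IBM1 knockout arrays, 8.14 and 8.42 on those of the JMJ24 knockout, 8.29 and 8.06 on those of the double knockout, and 8.30 and 8.37 on those of WT. Both IBM1 knockout arrays lay below the other 6, which was so for 7.91% of all probe sets. The JMJ24 knockout overlapped both the double knockout and WT.

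The difference of NdhL between the IBM1 knockout and WT was -0.43 (SE 0.119, 95% interval -0.74 to -0.13). It did not pass over all probe sets (limma adjusted p = 0.195). The interval holds for this gene taken alone and is not adjusted for the number of probe sets. NdhL differed from WT by -0.05 in the JMJ24 knockout (limma adjusted p = 1) and by -0.16 in the double knockout (limma adjusted p = 1). Against the IBM1 knockout the double knockout stood 0.27 higher (SE 0.119, limma adjusted p = 0.502), a value that ran from 0.16 to 0.39 with 1 array left out. Without JMJ24 knockout replicate 1 the JMJ24 knockout stood 0.08 above WT, so that array alone set the direction of that small difference. Without double knockout replicate 2, the double knockout differed from WT by -0.05.

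LHCB4.2 lay near the top of the table, whose highest value was 13.6, and its differences were small. It measured 12.67 and 12.59 on the IBM1 knockout arrays, 12.81 and 12.89 on those of the JMJ24 knockout, 12.79 and 12.72 on those of the double knockout, and 12.83 and 12.83 on those of WT. Both IBM1 knockout arrays were below the other 6, as in 7.91% of all probe sets, and the 2 WT arrays fell between those of the JMJ24 knockout. That share includes the IBM1 knockout below WT, which chose LHCB4.2, so it does not measure how unusual the gene is. Its difference between the IBM1 knockout and WT was -0.20 (SE 0.0514), a signal of 0.868 times that of WT, given here as a description.

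None of the other comparisons of LHCB4.2 passed, and each against WT or the IBM1 knockout reuses arrays that chose the gene, so none is independent of that choice. It differed from WT by 0.02 in the JMJ24 knockout (95% interval -0.11 to 0.15, limma adjusted p = 1), or by -0.02 without JMJ24 knockout replicate 2, and by -0.07 in the double knockout (95% interval -0.20 to 0.06, limma adjusted p = 1). With 1 array left out the second ran from -0.11 to -0.04. The double knockout stood 0.13 above the IBM1 knockout (SE 0.0514, limma adjusted p = 0.45) and differed from the JMJ24 knockout by -0.09 (limma adjusted p = 1). From low to high its means ran IBM1 knockout, double knockout, WT and JMJ24 knockout, at 12.63, 12.76, 12.83 and 12.85; the last 2 overlapped.

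A test of whether JMJ24 loss acted differently with and without IBM1, an interaction term, used all 4 genotypes. For NdhN, JMJ24 loss gave 0.17 in plants without IBM1 and -0.43 in plants with it, and the difference between these was 0.60 (SE 0.0874, 95% interval 0.38 to 0.82). It did not pass over all probe sets (limma adjusted p = 0.239), of which 0.0132% were called. NdhL had an interaction of 0.33 (SE 0.168, limma adjusted p = 0.78; 0.19 to 0.46 with 1 array left out) and LHCB4.2 of 0.11 (SE 0.0727, limma adjusted p = 0.884). Each term also equals the double against JMJ24 knockout difference minus the IBM1 knockout against WT difference. For NdhN and LHCB4.2 the latter chose the gene, so the sign and size of their terms follow in part from that choice.

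Counted together, limma called 1 of the 3 measured members in the IBM1 knockout against WT, which is the comparison that chose NdhN, where 0.334% of probe sets were called in either direction. In the other comparisons it called 0 of 3. At an unadjusted p under 0.05 there was 1 in the JMJ24 knockout against WT and 1 in the double knockout against WT, in each case NdhN. Of all probe sets, 4.04% and 5.54% had such a p in these comparisons, and 0.00879% were called in each. There were 2 members, NdhN and LHCB4.2, in the double knockout against the IBM1 knockout, where 11.1% of probe sets had an unadjusted p under 0.05 and 0.242% were called. There was 1, NdhN, in the double against the JMJ24 knockout, where 3.35% had such a p and 0% were called (limma-trend called 1 probe set). With limma-trend the counts of members called were the same. Comparisons against WT or the IBM1 knockout reuse arrays that chose NdhN and LHCB4.2, so their counts are not independent of that choice.

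Other nuclear genes of the light reactions were read from lists of 80 genes in all, 75 of them not members, chosen with earlier results of these data known. Only 9 of these 75 had a probe set of their own name, so the lists are thinly covered: with members, 4 of 27 NDH genes, 3 of 22 antenna genes, 2 of 12 for photosystem I, 2 of 10 for photosystem II and 1 of 11 for electron carriers. None of the 9 was called in any comparison. In the IBM1 knockout against WT, 8 of the 9 had values below 0. Their median difference was -0.10, against -0.01 over all probe sets and -0.04 over the 7286 probe sets whose highest group mean was at least 5. Values below 0 were found in 57.6% of all probe sets and 54.5% of those brighter ones. In the JMJ24 knockout the median of the 9 genes was -0.02, and in the double knockout -0.14, each against 0.00 over all probe sets.

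**Figure D2:**
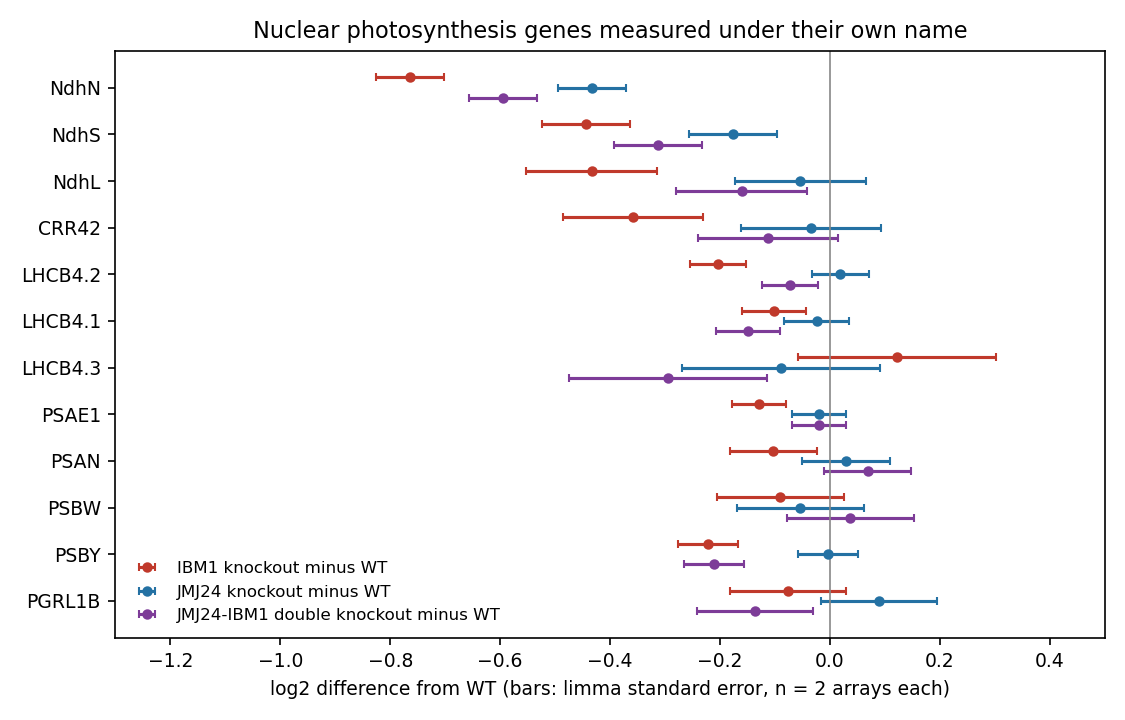
Log2 difference from WT of the 12 nuclear photosynthesis genes measured under their own name, for the IBM1, JMJ24 and double knockouts; points are differences of group means of 2 arrays and bars are limma standard errors. NdhN lies furthest left in all 3 comparisons, at -0.76, -0.43 and -0.59, and LHCB4.3 alone lies right of 0 in the IBM1 knockout, at 0.12.

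Among the NDH genes of those lists, the 4 measured of 27 were NdhN, NdhL, NdhS (AT4G23890) and CRR42 (AT5G20935), and their differences in the IBM1 knockout are given 1 by 1, since NdhN was chosen by its own. NdhS, the subunit at which ferredoxin docks, measured 8.76 and 8.73 on the IBM1 knockout arrays, 8.96 and 9.07 on those of the JMJ24 knockout, 8.91 and 8.84 on those of the double knockout, and 9.28 and 9.09 on those of WT. As with NdhN, all 6 knockout arrays lay below both WT arrays, as in 3.49% of all probe sets. The genotypes also kept the same order without overlap, as in 0.211%, an order taken from NdhN. The margins were narrow: the higher JMJ24 knockout array, at 9.07, lay just below the lower WT array, at 9.09. The higher double knockout array, at 8.91, lay just below the lower JMJ24 knockout array, at 8.96. Its difference from WT was -0.44 in the IBM1 knockout (SE 0.0799, limma adjusted p = 0.106), -0.18 in the JMJ24 knockout (limma adjusted p = 1) and -0.31 in the double knockout (limma adjusted p = 0.659), so none passed.

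CRR42, a factor needed to assemble the stromal arm, measured 5.38 and 5.44 in the IBM1 knockout and 5.69 and 5.84 in WT, a difference of -0.36 (SE 0.127, limma adjusted p = 0.296). Its JMJ24 knockout arrays, at 5.90 and 5.57, lay on either side of both WT arrays. Further genes named for the loss of NDH activity were matched by symbol after their values had been seen, and are a description. CRR21, a pentatricopeptide repeat protein that acts in the editing of an ndh transcript, measured 4.74 and 4.63 in the IBM1 knockout and 5.49 and 5.17 in WT. CRR41, another assembly factor, measured 4.83 and 4.63 in the IBM1 knockout and 5.25 and 4.95 in WT. PIFI, a gene known from the chlorophyll fluorescence rise after illumination that NDH activity causes, measured 9.70 and 9.51 in the IBM1 knockout and 9.97 and 9.72 in WT. The IBM1 knockout arrays lay below both WT arrays for each of these 3 genes, as in 18.7% of all probe sets. CRR22 and CRR28 lay close to background, with means of 2.80 and 2.71 in the IBM1 knockout and 2.82 and 3.01 in WT.

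Subunits encoded by the chloroplast genome lay on both sides of WT in the IBM1 knockout. Of 12 listed, 10 were measured, and 3 stood above WT and 7 below, with a median of -0.07. The differences ran from -0.67 for ndhJ to 0.37 for ndhG, and limma called none of the 10 (lowest adjusted p = 0.401). For ndhJ and ndhK both IBM1 knockout arrays lay below both WT arrays, as in 18.7% of all probe sets. For ndhG both lay above, at 4.28 and 4.03 in the IBM1 knockout and 3.69 and 3.87 in WT. The share of all probe sets separated upwards is not given here. The arrays of 1 genotype were far apart for ndhH, which measured 4.79 and 5.46 in the IBM1 knockout and 5.27 and 5.93 in WT. The double knockout arrays were also far apart, at 9.03 and 9.88 for ndhJ, 7.10 and 7.84 for ndhK and 3.48 and 4.42 for ndhG. No test of nuclear against chloroplast genes was made.

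**Figure D3:**
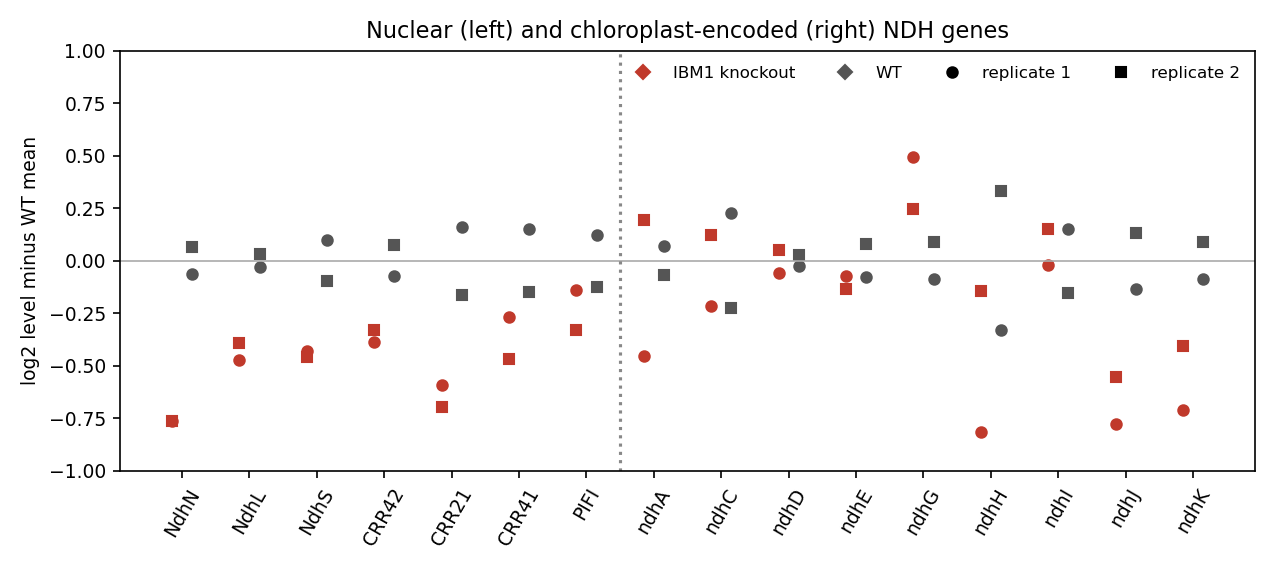
Log2 level minus the WT mean for nuclear NDH genes (left of the dotted line) and chloroplast-encoded NDH genes (right), on the 2 IBM1 knockout and the 2 WT arrays; ndhF, CRR22 and CRR28, near background, are left out; IBM1 knockout and WT arrays of CRR22 and CRR28 overlapped. The IBM1 knockout points lie below both WT points for the 7 nuclear genes shown, from NdhN at -0.76 to PIFI at -0.24 in the mean, while the chloroplast genes lie on both sides. Such separation was seen in 18.7% of all probe sets. NdhN was chosen by this comparison, and CRR21, CRR41 and PIFI were matched after their values had been seen, so the 2 sides are no fair contrast.

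The 3 genes for CP29 differed in their values. LHCB4.1 measured 12.69 and 12.58 in the IBM1 knockout and 12.75 and 12.73 in WT, a difference of -0.10 (SE 0.0585, limma adjusted p = 0.564). LHCB4.3, the more divergent gene, measured 7.39 and 7.76 in the IBM1 knockout and 7.34 and 7.57 in WT, so the groups overlapped, at a difference of 0.12 (SE 0.180, limma adjusted p = 0.970) that turned to -0.06 without IBM1 knockout replicate 2. In the double knockout LHCB4.3 measured 6.97 and 7.35, and its 2 arrays were further apart than those of LHCB4.2. LHCB4.1 and LHCB4.2 are close copies of each other, and whether their probes bind each other's transcript was not tested.

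**Figure D4:**
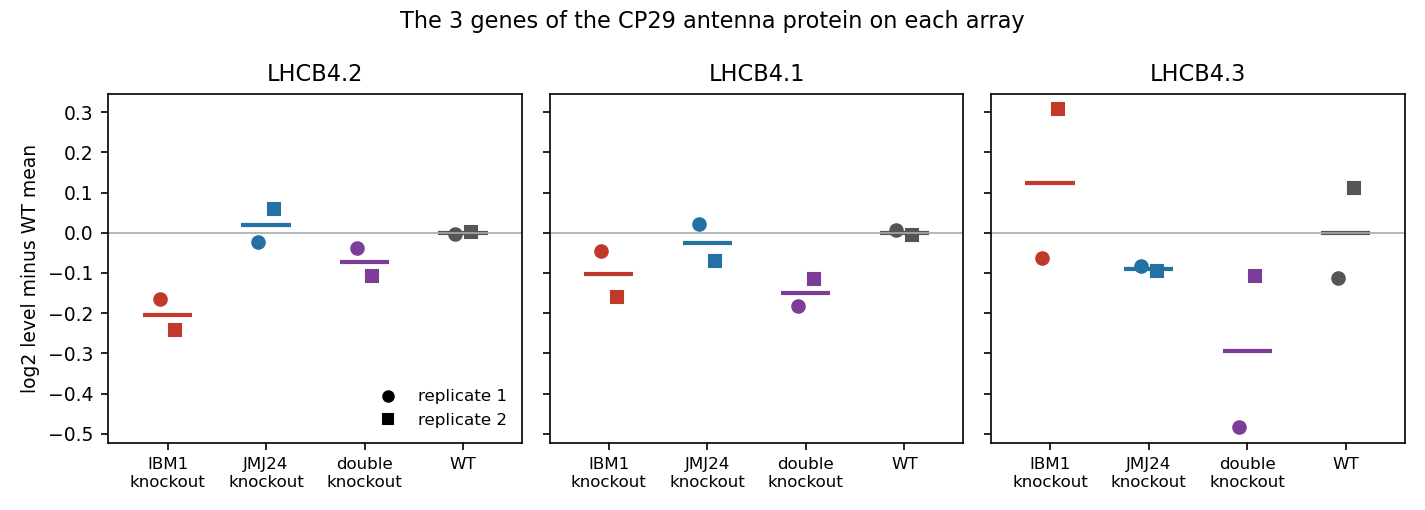
Log2 level minus the WT mean of the 3 CP29 genes on each array, by genotype; circles and squares are replicates 1 and 2 and horizontal lines are group means, on 1 shared axis. LHCB4.2 is lowest in the IBM1 knockout, at -0.20 in the mean, LHCB4.1 in the double knockout, at -0.15, and LHCB4.3 has IBM1 knockout arrays on both sides of 0.

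Core subunits of the photosystems differed little, and none passed. PSAE1, a stromal subunit of photosystem I, differed by -0.13 in the IBM1 knockout against WT (limma adjusted p = 0.325), and PSAN, a lumenal one, by -0.10 (limma adjusted p = 0.705). PSBY and PSBW, small subunits of photosystem II, differed by -0.22 and -0.09 (limma adjusted p = 0.167 and 0.922). PGRL1B, of the cyclic pathway that does not use NDH, differed by -0.08 (limma adjusted p = 0.954). For PSBY the 2 IBM1 knockout arrays, at 11.90 and 11.89, lay below both WT arrays, at 12.10 and 12.13, as in 18.7% of all probe sets. For PSAE1 and PSAN both IBM1 knockout arrays lay below the other 6, as for NdhL and LHCB4.2 and in 7.91% of all probe sets. PSAE1 also had all 6 knockout arrays below both WT arrays, as NdhN did and 3.49% of all probe sets. In the IBM1 knockout the directions for PSBW and PGRL1B were not stable. PSBW stood 0.05 above WT without IBM1 knockout replicate 1 and 0.01 above it with quantile normalization on top. PGRL1B stood 0.01 above WT without WT replicate 1.

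Replicates of the JMJ24 and double knockouts did not split alike for all members. NdhL was lower by 0.27 on JMJ24 knockout replicate 1 than on replicate 2, and lower by 0.23 on double knockout replicate 2 than on replicate 1. LHCB4.2 split the same way, by 0.08 and 0.07. NdhN did not: it was 0.10 higher on JMJ24 knockout replicate 1 and 0.06 lower on double knockout replicate 2. Being lower on both of these arrays was seen in 49.3% of all probe sets and 28.3% of the brighter ones. Without these 2 arrays, where the JMJ24 and double knockouts rest on 1 array each, NdhN differed from WT by -0.48 in the JMJ24 knockout and by -0.57 in the double knockout. NdhL then differed from WT by 0.08 and -0.05 in the same order, LHCB4.2 by 0.06 and -0.04, and NdhS by -0.12 and -0.27. Against the IBM1 knockout the double knockout stood 0.20 higher for NdhN, 0.39 for NdhL and 0.17 for LHCB4.2, and against the JMJ24 knockout it differed by -0.08, -0.13 and -0.10. The interactions were 0.68 for NdhN, 0.30 for NdhL, 0.11 for LHCB4.2 and 0.29 for NdhS.

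**Figure D5:**
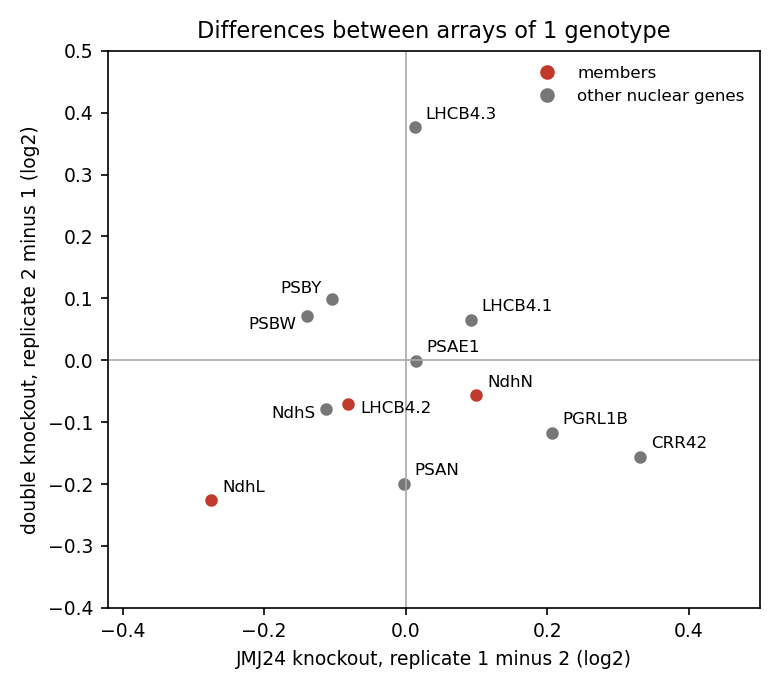
Difference between the 2 arrays of the JMJ24 knockout (replicate 1 minus 2, horizontal) and of the double knockout (replicate 2 minus 1, vertical), in log2, for 12 nuclear photosynthesis genes; members are red. NdhL lies at -0.27 and -0.23, LHCB4.2 at -0.08 and -0.07, and NdhN at 0.10 and -0.06.

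Among 3580 other genes with a highest group mean of at least 5, the 5 whose values over the 8 arrays were most like those of NdhN were AT3G10060, AT2G27680, AT1G79510, AT2G34310 and AT4G31530. Their Pearson correlations with NdhN ran from 0.941 to 0.946 over the 8 arrays, which share their genotype groups. These genes differed from WT by -0.996 to -0.363 in the IBM1 knockout, by -0.44 to -0.13 in the JMJ24 knockout and by -0.73 to -0.31 in the double knockout. The 5 most like LHCB4.2 were AT4G17810, AT1G56220, AT2G28410, AT4G32330 and AT4G26555, with correlations from 0.969 to 0.979. These differed from WT by -0.86 to -0.30 in the IBM1 knockout and by -0.11 to 0.14 in the JMJ24 knockout. No gene was among the 5 of both members. Each set of 5 was picked on these same arrays, so differences like those of NdhN or LHCB4.2 follow from the picking.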

How the data were processed

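Log2 values, 1 per probe set and array, were made by the authors with GCRMA, per the submitters' processing notes, which give no version. GCRMA corrects background by probe sequence, quantile normalises arrays and summarises probes, which can compress small differences of bright probe sets. The values ran from 2.02 to 13.6. Precision is limited by the number of arrays.

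Of 22810 probe sets, 64 controls were left out. Names came from the platform annotation, brought up to date against the TAIR10.1 gene table by Entrez ID: 13513 probe sets named 1 gene, 503 several and 8730 none. Chloroplast genes were matched by symbol, after the locus tags listed for them found no entry. The whole table was fitted with limma 3.58.1 in R 4.3.3 (1 mean per genotype, 8 arrays, 4 residual degrees of freedom, a prior worth 1.2), and Benjamini-Hochberg adjusted p-values under 0.05 were called. The code was tested on simulated data.

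The members and lists were chosen with earlier results of these data known. Named were all measured members, all measured nuclear genes and markers of the lists, and the 5 genes most correlated with NdhN and with LHCB4.2. Of the measured chloroplast NDH genes only some were named. Counts of calls and 40 differences (every one printed for a single member or listed gene) were repeated after dropping dim probe sets (no group mean of 5 or more), after a further quantile normalization, after median centring of arrays, with limma-trend, with a fit to the 2 compared groups, and with replicate number as a block. It was also repeated without each array in turn, and without JMJ24 knockout replicate 1 and double knockout replicate 2 together. A crossed block was chosen after seeing the data. No member had another probe set, so that alternative was not run. No seed marker of 3 was measured.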

Additional observations from a re-analysis of the deposited data

Results flagged for a closer look

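For 3 of the 12 nuclear list genes measured, every double knockout array lay above the mean of the IBM1 knockout, while every JMJ24 knockout array lay below the mean of WT. The share of all probe sets that meet this rule is not given here, so 3 of 12 cannot be called unusual. NdhN stood 0.17 above the IBM1 knockout in the double knockout and differed by -0.43 from WT in the JMJ24 knockout. The difference between these effects was 0.60 (SE 0.0874). The interaction test did not pass over all probe sets (limma adjusted p = 0.239), of which 0.0132% were called. For NdhN this term contains the IBM1 knockout against WT difference that chose the gene, so its sign and size follow in part from that choice. NdhS had 0.13 and -0.18 in the same order, a difference of 0.31 (SE 0.113, limma adjusted p = 0.611). PSAE1 had 0.11 and -0.02, a difference of 0.13 (SE 0.0696, limma adjusted p = 0.807). The groups of 2 arrays were too small for a search for outlying arrays.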

How the results depend on the processing

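With 2 arrays per genotype, calls depended on the fit more than differences did. In all, 40 gene differences were repeated 597 times; 576 kept direction and side of the threshold, 11 lost the call, all of them NdhN in the IBM1 knockout against WT, and 10 turned direction, none of them called. NdhN in that comparison was called under 4 of 15 alternatives, at differences between -0.83 and -0.70 under all 15. Members called there numbered 0 with the compared groups alone, with the replicate block, without the 2 arrays that stand apart and without any 1 array (0 to 0). The fits without 1 array assume that the lone array left in a genotype varies like the others, and have fewer samples.

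NdhL in the JMJ24 knockout against WT ran from -0.19 to 0.0834 with 1 array left out and was 0.0834 without the 2 arrays that stand apart; in the double against the JMJ24 knockout it ran from -0.24 to 0.0303, with 0.00609 without double knockout replicate 2. LHCB4.2 in the JMJ24 knockout ran from -0.0220 to 0.0600. In the IBM1 knockout, LHCB4.3 ran from -0.0618 to 0.31, PSBW from -0.23 to 0.0472 (0.0117 with quantile normalization on top) and PGRL1B from -0.16 to 0.0104. PSAE1 in the JMJ24 knockout was 0.0135 with quantile normalization on top.

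Over the whole table, the calls were 76 for the IBM1 knockout against WT (60 higher, 16 lower), 2 for the JMJ24 knockout against WT, 2 for the double knockout against WT, 55 for the double against the IBM1 knockout, 0 for the double against the JMJ24 knockout (762 at an unadjusted p under 0.05) and 3 for the interaction. With 1 array left out these ran from 0 to 165, 0 to 1, 0 to 1, 0 to 161, 0 to 0 and 0 to 68. The first 4 were 0 with the compared groups alone, and they and the interaction were 0 with the replicate block and without the 2 arrays that stand apart. The filter on dim probe sets gave 6 for the double against the IBM1 knockout and 0 for the interaction, quantile normalization on top 25 and 0, with 1 for the JMJ24 knockout. Limma-trend gave 5 for the double knockout against WT, 1 for the double against the JMJ24 knockout and 10 for the interaction. For the IBM1 knockout, centring gave 48 rises and 23 falls, and the dim filter 50 and 32.

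Equal replicate numbers are not stated to pair the arrays: deviations of same-numbered arrays correlated between -0.31 and 0.21 across the genotype pairs, with -0.31 for the JMJ24 and double knockouts. With the pairing crossed for those 2 groups, the replicate block gave 0 calls.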
